A study of Mus musculus with 15 samples.

Results

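The amino acid transporter families were followed by gene symbol: every gene whose symbol starts with Slc1a, Slc3a, Slc6a, Slc7a, Slc36a, Slc38a or Slc43a and whose RefSeq transcript is named by a probe of the array. The array held 65 such genes on 92 probes, of 23462 named genes on 33767 probes. Of the 65, 21 belonged to Slc6, 16 to Slc7, 11 to Slc38, 7 to Slc1, 5 to Slc36, 3 to Slc43 and 2 to Slc3. The symbol rule also took in Slc36a1os and Slc7a6os, which lie opposite a transporter gene and are named after it but are not transporters themselves.

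The RNA came from Mouse Embryonic Fibroblasts (MEFs) of the established line 3T3, here Balb/c 3T3 clone A31, and was read on 15 one-color microarrays of 60-mer probes. There were 5 groups of 3 arrays. Control MEFs had no cytokine. The treated groups received 10 ng/ml of TNFα, 5 ng/ml of TGFß1, 1 ng/ml of IL-1β, or 20 ng/ml of IL-6 together with 25 ng/ml of its soluble receptor sIL-6Rα. TNFα was the prototypic proinflammatory cytokine of the study and TGFß1 the profibrotic cytokine, and the array comparison of these with controls was made after a 24 h stimulation. The labels give 24 or 72 h of culture for every array, and no exposure time was found for the IL-1β and IL-6 groups. All cells were grown in the same medium with serum, and 1 clone stands for fibroblasts in all groups.

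Amino acids cross membranes through carriers of several solute carrier (Slc) families. Slc7 holds the cationic amino acid transporters and the light chains that need a heavy chain of the Slc3 family to reach the cell surface. Slc43 carriers let large neutral amino acids pass by facilitated diffusion, Slc1 holds glutamate and neutral amino acid carriers, Slc38 the sodium-coupled neutral carriers, Slc36 the proton-coupled carriers, and Slc6 the sodium- and chloride-coupled carriers of glycine, proline, taurine, creatine and neurotransmitters. In fibroblasts these carriers supply protein and collagen synthesis, glutathione synthesis from cystine, and nitric oxide synthesis from arginine, and several are transcribed under ATF4, the factor of the amino acid response.

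The level of a probe is given as log2 of its processed signal minus the 75th percentile of its array, so that 0 is the level of the 75th percentile and negative values are dimmer. Levels of different probes are not comparable with each other. A gene with several probes is described by its brightest probe. A gene was called when q was below 0.05, after Benjamini-Hochberg adjustment over the 29334 probes tested, and the absolute fold-change was at least 1.5. Changes are given as log2 fold-change with its standard error (SE) from limma. As these are bulk RNA samples, fewer cells of a type and less RNA per cell cannot be told apart.

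The share of probes well above background ranged from 48.3% to 54.9% over the 15 arrays, and no spot was saturated. All 11 fibroblast markers, among them Col1a1, Col1a2, Dcn and Pdgfrb, were well above background on all 15 arrays. Their summed level, on a linear scale relative to the 75th percentile, was 1920 to 2269 in controls and 1411 to 1817 with TNFα. It was 1742 to 2377 with TGFß1, 1813 to 2506 with IL-1β and 1967 to 2343 with IL-6. With TNFα 1 was called higher (9.09%, beside 6.26% of all genes) and 3 lower (27.3%, beside 8.09%). With TGFß1 2 were called higher (18.2%, beside 11.1%) and 3 lower (27.3%, beside 12.0%). Of the 7 leukocyte markers, Ptprc, Adgre1 and Lyz2 were well above background on no array and Cd14, Cd68, Csf1r and Itgam on all 15. The summed level of the leukocyte markers, on a linear scale relative to the 75th percentile, ranged from 10.8 to 22.4 in controls and from 11.3 to 24.8 over the treated groups, and 1 of them, Cd14, rose with TNFα by 0.82 on the log2 scale. The summed level of the 7 epithelial markers, on the same scale, ranged from 2.19 to 2.88 in controls, 0.107 to 0.122 with TNFα, 0.322 to 0.736 with TGFß1, 0.590 to 1.03 with IL-1β and 1.91 to 2.34 with IL-6. It followed the keratin gene Krt15, which was at least 61.7-fold lower with TNFα and fell by 5.16 on the log2 scale with TGFß1. The keratin gene Krt8 moved the other way with TGFß1, at least 3.37-fold higher. Of the other epithelial markers, Cdh1 and Krt5 were well above background on no array and Epcam on 1 TGFß1 array. Krt14 was so on 1 array each of control, TGFß1 and IL-1β, and Krt18 on at least 1 array of every group. Cd14, the epithelial sum, Krt8 and the called fibroblast markers moved with 1 or more of the treatments, and their part in the results was not tested. The arrays came from 2 slides, and 4 tested members had all 7 arrays of slide 2 above all 8 arrays of slide 1, namely Slc1a4, Slc38a8, Slc6a20a and Slc7a14. Within each group the leukocyte marker Itgam was brighter on slide 2, in controls at 4.33 against 3.16 and 3.24 on slide 1. The slide was a term of the fit. Within each slide taken alone, the 24 calls described here kept their direction. They were picked on these same arrays, and each group has a lone array on 1 slide, so this is little further support. The label numbers of the arrays form 3 runs of 5, each with 1 array of every group, and arrays of a run deviated together. Where a fit with the run as a further block changed a call, its value is given beside the result.

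Of the 65 genes, 29 were tested, because their probe was well above background on all 3 arrays of at least 1 group, and 26 of these were well above background on all 15 arrays. The tested genes were 9 of Slc7, 7 of Slc38, 4 of Slc6, 3 of Slc1, 3 of Slc43, 2 of Slc36 and 1 of Slc3. Among the 36 untested genes, 20 were well above background on no array. These included the glutamate carriers Slc1a1 and Slc1a3, the light chains Slc7a8, Slc7a9 and Slc7a10, and the GABA carriers Slc6a11 and Slc6a13. A further 14 were seen on 1 to 3 arrays, among them the neutral carrier Slc38a1 on 1 array, the glutamate carrier Slc1a2 on 2 and the heavy chain Slc3a1 on 2. Slc6a16 was seen on 6 arrays and Slc6a17 on 7. Most of the 29 tested genes belonged to Slc7 and Slc38, with Slc7a6os counted among them.

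In TNFα-treated MEFs, the cationic carrier Slc7a2, the large neutral carrier Slc43a2, the cystine carrier Slc7a11 and the light chain Slc7a5 rose, while the taurine carrier Slc6a6 and the neutral carrier Slc38a4 fell. These were 4 higher and 2 lower of 29 members tested, or 20.7%. Over all 13523 genes 14.3% were called, 6.26% higher and 8.09% lower, and the median log2 fold-change was 0.26 over the members and 0.02 over all genes. Of the 26 members well above background on all 15 arrays, 3 were called higher and 2 lower.

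Slc7a2 encodes an inducible carrier of arginine, lysine and ornithine. Its levels were -6.00, -3.67 and -6.09 in controls and -1.34, -1.37 and -2.43 with TNFα. All 3 TNFα arrays were brighter than every control, and the probe was well above background in control 6 only among the controls. The fitted log2 fold-change was 3.47 (SE 0.72), a value near background that was 1.26 with the normexp background correction and 4.55 without control 6. With TGFß1 the levels were -5.60, -5.27 and -6.01, and no array was well above background. With IL-1β they were -4.46, -3.49 and -5.17 with 2 arrays well above background, and with IL-6 -5.99, -3.95 and -5.64 with 1. Slc7a2 entered the test only through its TNFα arrays, the group in which it was high, so that its call (q = 0.00675 by limma) is a description, and control 6 stood apart from the other controls.

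Slc43a2 (LAT4) carries leucine, isoleucine, methionine and phenylalanine. Control levels were -2.43, -1.20 and -2.03, and TNFα levels 1.23, 1.96 and 1.5, well apart from each other. The log2 fold-change was 3.24 (SE 0.33, q = 7.56e-05 by limma). The second tested probe of the gene gave 1.81 (SE 0.31, q = 0.00220), the same direction with a smaller change. The other Slc43 genes moved less. Slc43a3, a purine nucleobase carrier, had a log2 fold-change of 0.53 (q = 0.00318), which passed the q-value but not the fold-change criterion. Slc43a1 (LAT3) was at -0.03, with a 95% interval from -0.53 to 0.47.

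Slc7a11 encodes xCT, the light chain that exchanges extracellular cystine for glutamate. Levels were -3.55, -3.98 and -3.45 in controls and -1.60, -2.18 and -1.99 with TNFα. The groups did not overlap, and the log2 fold-change was 1.69 (SE 0.28, q = 0.00178 by limma). A second, dimmer probe was not tested, and its groups overlapped. Its levels were -5.25, -6.50 and -4.86 in controls and -3.90, -5.37 and -4.59 with TNFα. That probe was well above background on 0 control arrays and 2 TNFα arrays. Slc7a5 encodes LAT1, the light chain for leucine and other large neutral amino acids. Levels were -2.22, -3.20 and -2.95 in controls and -1.53, -2.19 and -1.61 with TNFα. The groups were separated by a narrow gap between control 1 and TNFα 9, and the log2 fold-change was 1.08 (SE 0.32, q = 0.0341). The call of Slc7a5 was lost without control 6, control 11, TNFα 4 or TNFα 14, where q reached 0.171. It was also lost without the slide as a term, with arrays centred on their median and with no filter on dim probes. Slc3a2 (CD98), the heavy chain with which both light chains pair, had a log2 fold-change of 0.26 with a 95% interval from -0.06 to 0.58.

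Slc6a6 takes up taurine. It gave levels of 5.31, 5.20 and 5.27 in controls and 4.41, 4.37 and 4.41 with TNFα. The arrays of each group lay within a narrow range, and the log2 fold-change was -0.82 (SE 0.08, q = 5.01e-05 by limma). The second probe gave -0.80 (q = 0.00778). Slc38a4 (SNAT4), a sodium-coupled carrier of small neutral amino acids, had control levels of -1.63, -1.31 and -1.53 and TNFα levels of -2.84, -2.25 and -2.01. All TNFα arrays were dimmer than the controls, with a log2 fold-change of -0.83 (SE 0.22, q = 0.0223). The second probe gave -0.79 with q = 0.0734, and the call was lost without control 6 or without TNFα 4, where q reached 0.140. It was also lost with the normexp correction and with no filter on dim probes. The same held with the arrays of control and TNFα alone, and with those of control, TNFα and TGFß1 alone.

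**Figure D1:**
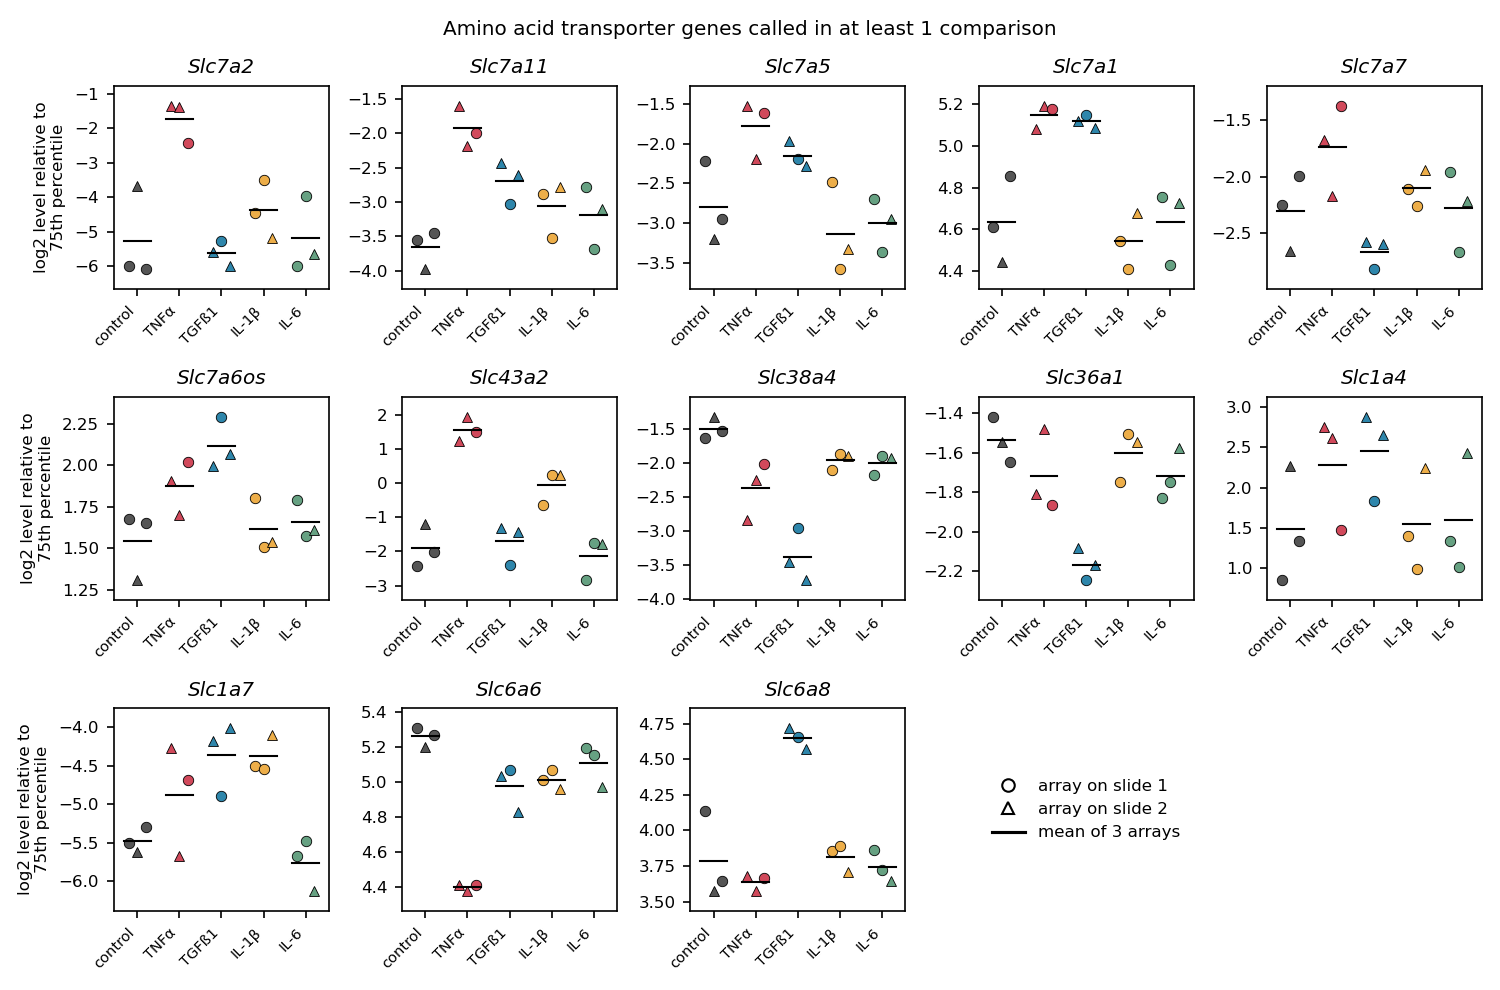
Level of each of the 13 members called in at least 1 of the 6 comparisons on each array (log2, relative to the 75th percentile of the array), by group, with circles for slide 1, triangles for slide 2 and a bar at the mean of 3 arrays; each panel has its own axis. Slc7a2 and Slc43a2 stand highest with TNFα, Slc38a4 lowest with TGFß1, and Slc1a4 splits by slide within every group.

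In TGFß1-treated MEFs, the creatine carrier Slc6a8, the cystine carrier Slc7a11, the neutral carrier Slc1a4, the glutamate carrier Slc1a7 and Slc7a6os rose, and the neutral carrier Slc38a4 and the proton-coupled carrier Slc36a1 fell. These were 5 higher and 2 lower of 29 tested members, or 24.1%, beside 23.0% of all genes, with 11.1% higher and 12.0% lower. The median log2 fold-change was 0.14 over the members and 0.06 over all genes. The share of members called was near that of all genes. Of the 26 members well above background on all 15 arrays, 4 were called higher and 2 lower.

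Slc38a4 fell most among the members called in this comparison. Its TGFß1 levels were -3.46, -2.96 and -3.73, below every control and every TNFα array. The log2 fold-change was -1.85 (SE 0.22, q = 0.000136 by limma). The second probe gave -2.08 (q = 0.000327) and was well above background on no TGFß1 array.

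Slc6a8 imports creatine. Its levels were 4.14, 3.57 and 3.65 in controls and 4.72, 4.65 and 4.57 with TGFß1. The TGFß1 arrays lay above all other 12 arrays, and the log2 fold-change was 0.91 (SE 0.12, q = 0.000331 by limma). The second probe gave 1.33 (q = 0.000120).

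Slc7a11 had TGFß1 levels of -2.43, -3.03 and -2.60, all above the controls, and a log2 fold-change of 0.92 (SE 0.28, q = 0.0237 by limma). On its second, untested probe the TGFß1 levels of -4.74, -5.17 and -4.22 overlapped the controls. The call was lost in 3 of the 6 fits that left out an array, without control 6, TGFß1 2 or TGFß1 12, where q reached 0.174. It was also lost with the normexp correction and with no filter on dim probes. Slc7a11 and Slc38a4 were the 2 members called both with TNFα and with TGFß1, in the same direction each time, and these comparisons share the 3 control arrays. The Slc38a4 levels with IL-1β, at -2.10, -1.87 and -1.89, also lay below every control, without a call.

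Slc1a4 (ASCT1) exchanges alanine, serine, cysteine and threonine. Levels were 0.85, 2.27 and 1.34 in controls and 2.88, 1.83 and 2.65 with TGFß1. The groups overlapped, and in every group the arrays of slide 2 were brighter than those of slide 1. On slide 1 the TGFß1 array exceeded the mean of the controls by 0.74, and on slide 2 by 0.50. The fit with the slide gave 0.60 (SE 0.16, q = 0.0130 by limma), a call that was lost without the slide as a term and in 3 of the 6 fits that left out an array, without control 1, TGFß1 2 or TGFß1 7. It was also lost with the normexp correction and with quantile normalization. Slc1a5 (ASCT2), the glutamine carrier of the same family, had 0.32 (q = 0.0284), below the fold-change criterion.

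Slc1a7, a glutamate transporter best known from the retina, was near background. Levels were -5.51, -5.62 and -5.30 in controls and -4.18, -4.90 and -4.01 with TGFß1. No control array and 2 of 3 TGFß1 arrays were well above background. The TGFß1 mean was 1.37-fold above the dimmest signal well above background (q = 0.0276 by limma). This is no firm lower limit, as 1 TGFß1 array was itself not well above background. Among fits that kept all arrays the lowest log2 fold-change was 0.29. The call was lost with the normexp correction and with no filter on dim probes. Of the 6 fits that left out an array, 4 lost this call (without control 1, control 6, TGFß1 2 or TGFß1 12). With IL-1β all 3 arrays were well above background at -4.50, -4.55 and -4.10, but q was 0.401.

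Slc36a1 (PAT1) exports small amino acids from lysosomes with protons. Levels were -1.42, -1.55 and -1.65 in controls and -2.08, -2.25 and -2.17 with TGFß1. The groups did not overlap, with a log2 fold-change of -0.67 (SE 0.11, q = 0.00117 by limma). The second, dimmer probe disagreed at 0.48 (SE 0.35, q = 0.316), and the mean over both probes was not called. With the normexp correction Slc36a1 was not called either. Slc7a6os had levels of 1.68, 1.31 and 1.65 in controls and 2.00, 2.29 and 2.07 with TGFß1, without overlap. Its log2 fold-change was 0.64 (SE 0.11, q = 0.00118 by limma). The call of Slc7a6os was lost without control 6, without the slide as a term and with quantile normalization. Its neighbour Slc7a6 (y+LAT2) had 0.36 (q = 0.00517), below the fold-change criterion.

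**Figure D2:**
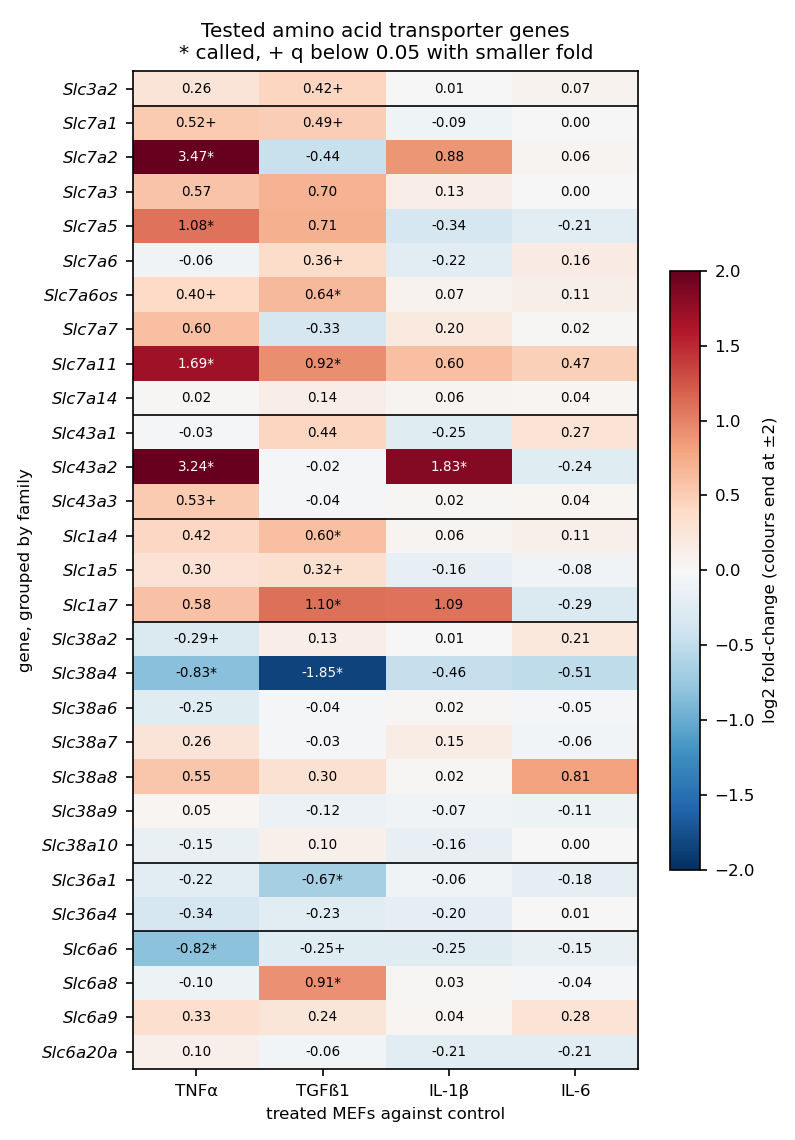
Log2 fold-change against control of the 29 tested members (rows, grouped by family) with each cytokine (columns); a star marks a call, a plus sign a q below 0.05 with a fold-change under 1.5, and colours end at 2 in either direction. Stars lie in the TNFα and TGFß1 columns, with 1 in the IL-1β column at Slc43a2 and none in the IL-6 column.

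Several members passed the q-value but not the fold-change criterion. With TNFα these were 4 genes, and q alone was passed by 10 of 29 members (23.5% of all genes). The cationic carrier Slc7a1 (CAT1) had a log2 fold-change of 0.52 (q = 0.0157 by limma), Slc43a3 is given above, Slc7a6os had 0.40 (q = 0.0251) and the neutral carrier Slc38a2 (SNAT2) -0.29 (q = 0.0353). With TGFß1 q alone was passed by 12 of 29 members (42.3% of all genes), 5 of them without the fold-change: Slc7a1 at 0.49 (q = 0.0124), Slc3a2 at 0.42 (q = 0.0411), Slc7a6, Slc1a5, and Slc6a6 at -0.25 (q = 0.0318). Slc7a1 thus had like values with the 2 cytokines, and the direct difference was 0.03 with a 95% interval from -0.24 to 0.30.

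Other members did not pass the q-value. The cationic carrier Slc7a3 had 0.57 with TNFα (95% interval -0.04 to 1.17) and 0.70 with TGFß1 (0.09 to 1.31, q = 0.0684 by limma), the latter past the fold-change criterion. The light chain Slc7a5 had 0.71 with TGFß1 (0.02 to 1.40, q = 0.101), also past it. With the run as a block both were called with TGFß1, Slc7a3 at 0.68 (q = 0.000387) and Slc7a5 at 0.71 (q = 0.00315), where 25.4% of all genes were called. The lysosomal arginine sensor Slc38a9 had 0.05 (-0.16 to 0.25) and -0.12 (-0.33 to 0.08). The glycine carrier Slc6a9 (GlyT1) had 0.33 (-0.02 to 0.68) and 0.24 (-0.11 to 0.59). The intervals for Slc38a9 lay within a fold-change of 1.5 in either direction, and those for Slc7a3 and Slc6a9 reached beyond it.

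**Figure D3:**
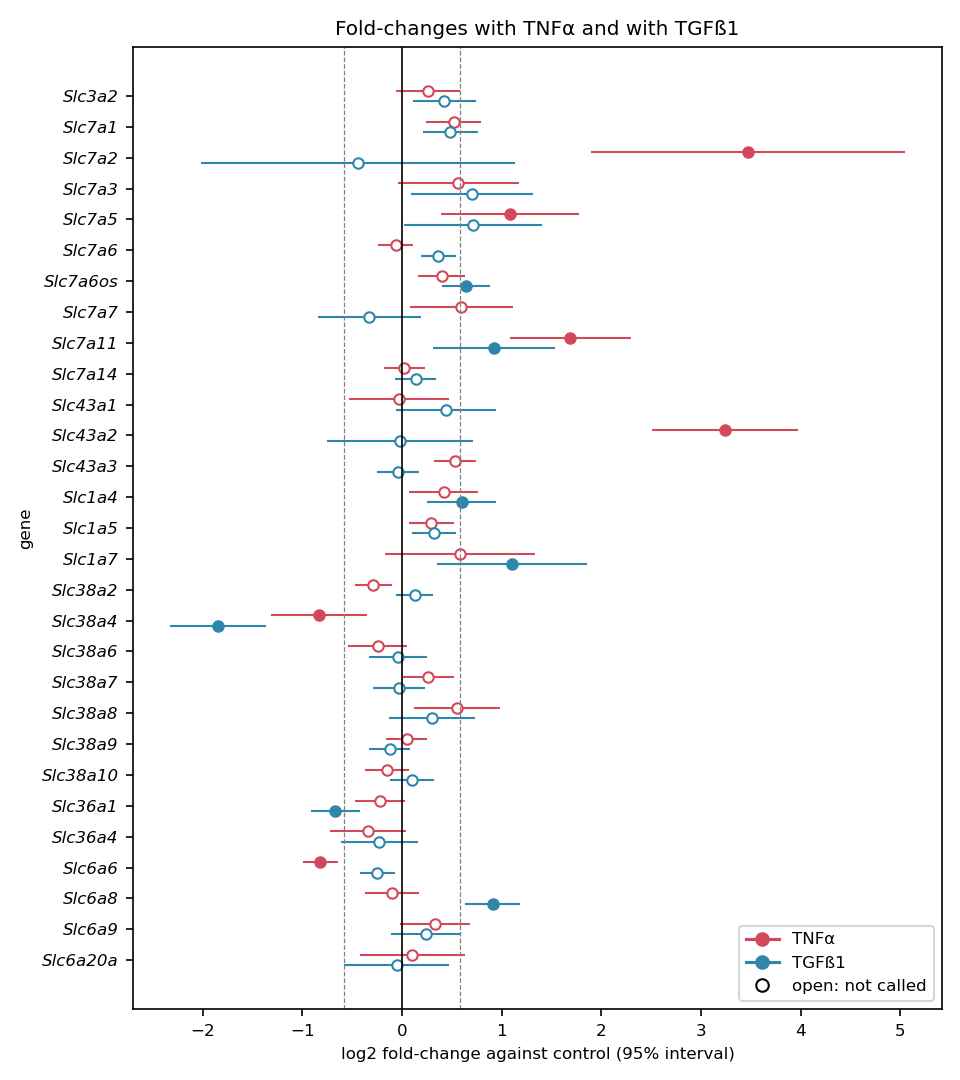
Log2 fold-change of the 29 tested members with TNFα (red) and TGFß1 (blue) against control, with 95% intervals; filled points are called, and dashed lines mark a fold-change of 1.5. The intervals of the 2 cytokines are far apart for Slc7a2, Slc43a2 and Slc6a8, and overlap for Slc7a1, Slc7a3 and Slc1a5.

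TNFα and TGFß1 were also compared directly, without control arrays. Slc7a2, Slc43a2, Slc38a4 and Slc7a7 were higher with TNFα, and Slc6a8 was higher with TGFß1. These were 5 of 29 members, or 17.2%, beside 15.6% of all genes, 8.14% higher with TNFα and 7.48% higher with TGFß1. Of the 26 members well above background on all 15 arrays, 3 were called higher with TNFα and 1 lower. On the processed signal Slc7a2 was at least 8.11-fold higher with TNFα (q = 0.00189 by limma), since no TGFß1 array was well above background. The lowest fitted log2 difference among the alternatives was 1.33, below that bound. Slc43a2 differed by 3.27 on the log2 scale (SE 0.33, q = 2.85e-05). Slc38a4, which fell with either cytokine, was 1.02 higher with TNFα (SE 0.22, q = 0.00516). That call was lost with the normexp correction.

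Slc7a7 (y+LAT1), a light chain that exchanges cationic for neutral amino acids, was called in neither comparison with control in the fit with the slide alone. Its levels were -2.25, -2.65 and -1.99 in controls, -1.67, -2.17 and -1.37 with TNFα, and -2.57, -2.82 and -2.59 with TGFß1. Both treated groups overlapped the controls but not each other, and the direct difference was 0.92 (SE 0.23, q = 0.0135 by limma), a call lost without TNFα 14 or TGFß1 7. The normexp correction lost this call of Slc7a7 as well. Against control it had 0.60 with TNFα (q = 0.102), and with the run as a block 0.62 (SE 0.11, q = 0.00179), which was called beside 17.8% of all genes. Slc6a8 differed by -1.01 (SE 0.12, q = 0.000117), and its TNFα levels of 3.68, 3.57 and 3.66 overlapped the controls. Slc7a11 was 0.76 higher with TNFα than with TGFß1 and missed the threshold (95% interval 0.17 to 1.36, q = 0.0637). With the run as a block this difference was called (q = 0.000473), beside 18.0% of all genes.

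In IL-1β-treated MEFs, 1 member of 29 was called (3.45%), beside 0.510% of all genes, 0.481% higher. Slc43a2 had IL-1β levels of -0.63, 0.23 and 0.24, all above the controls and below the TNFα arrays. The log2 fold-change was 1.83 (SE 0.33, q = 0.0369 by limma). The second probe gave 0.95 (q = 0.437). None of the 6 fits that left out an array kept this call, with q from 0.0660 to 0.179 and a log2 fold-change from 1.58 to 2.03. With the run as a block, 2 members were called, beside 1.51% of all genes. The second was Slc7a11 at 0.60 (SE 0.11, q = 0.0269), which had the same value and q = 0.755 without the block.

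In the direct comparison of IL-1β with TNFα, 5 members were lower with IL-1β and none higher, 17.2% beside 7.87% of all genes called and 3.08% called lower. The count includes Slc7a2, tested only through its TNFα arrays, and 4 were lower of the 26 members well above background on all 15 arrays. Slc7a2 differed by -2.59 (SE 0.72, q = 0.0453 by limma), Slc7a5 by -1.42 (SE 0.32, q = 0.0181) and Slc43a2 by -1.41 (SE 0.33, q = 0.0235). Slc7a11 differed by -1.09 (SE 0.28, q = 0.0312) and Slc7a1 by -0.61 (SE 0.13, q = 0.0133). IL-1β levels of Slc7a5, at -2.48, -3.58 and -3.32, and of Slc7a1, at 4.54, 4.41 and 4.68, overlapped the controls. The doses of the cytokines differ, and the exposure time of the IL-1β group is not stated. Leaving out a single array kept between 0 (without TNFα 14) and 3 of these 5 calls. The call of Slc7a1 was also lost with the normexp correction and with quantile normalization.

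In IL-6-treated MEFs, no member was called by limma, beside 0.192% of all genes. An unadjusted p below 0.05 was seen for 3 of 29 members, beside 817 of all 13523 genes. Slc38a4 had the lowest log2 fold-change at -0.51 (95% interval -0.98 to -0.04, q = 0.824), with levels of -2.17, -1.89 and -1.93 that all lay below the controls. Slc38a8 had the highest at 0.81 (0.39 to 1.23, q = 0.204). Slc43a2, at -2.85, -1.75 and -1.79, overlapped the controls.

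Promoters are shown for the members that rose with TNFα or TGFß1 and hold a motif of the amino acid response, and for Slc7a1. RefSeq promoter windows of 300 bases (250 before and 50 after the transcript start, GRCm38.p6) were given for 22 of the 29 tested members. The C/EBP-ATF composite element bound by ATF4 was searched as TGATGNAA, the AP-1 element as TGANTCA, and the NF-kB and antioxidant response elements by their usual core letters, each on both strands. Capitals mark the matches, and sequences run 5′ to 3′ along the gene.
Slc7a11, chr3:50443564-50443863, minus strand: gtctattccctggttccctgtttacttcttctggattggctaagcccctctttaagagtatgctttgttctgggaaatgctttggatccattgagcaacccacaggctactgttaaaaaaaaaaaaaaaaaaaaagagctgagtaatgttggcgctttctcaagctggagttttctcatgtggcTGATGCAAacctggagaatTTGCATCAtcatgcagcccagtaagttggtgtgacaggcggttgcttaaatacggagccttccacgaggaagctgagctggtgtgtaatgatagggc
Slc1a4, chr11:20332664-20332963, minus strand: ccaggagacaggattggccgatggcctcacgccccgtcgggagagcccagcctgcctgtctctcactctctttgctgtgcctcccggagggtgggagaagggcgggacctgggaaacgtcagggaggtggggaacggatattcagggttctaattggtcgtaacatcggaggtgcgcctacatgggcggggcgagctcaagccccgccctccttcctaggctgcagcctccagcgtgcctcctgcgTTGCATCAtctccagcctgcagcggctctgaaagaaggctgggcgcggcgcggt
Slc7a1, chr5:148399855-148400154, minus strand: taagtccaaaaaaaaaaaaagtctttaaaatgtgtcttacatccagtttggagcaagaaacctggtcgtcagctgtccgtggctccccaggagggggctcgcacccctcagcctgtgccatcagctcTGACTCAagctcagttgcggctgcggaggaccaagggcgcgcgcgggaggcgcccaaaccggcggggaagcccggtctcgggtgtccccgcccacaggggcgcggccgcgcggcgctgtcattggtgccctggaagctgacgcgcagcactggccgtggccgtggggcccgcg

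The Slc7a11 window held 2 C/EBP-ATF matches on opposite strands, at -66 and -47 relative to the transcript start, and the Slc1a4 window held 1 at -4. Slc7a7 was the other tested member with this match, in some but not all of its windows, which partly overlap. The C/EBP-ATF element occurred in 3.97% of all 32851 promoter windows. A gene can have several windows, so a count of genes with a match is not comparable with a share of windows. The AP-1 element, whose letters read alike on either strand, occurred in 7.81% of windows. It lay at -123 in the Slc7a1 window shown, though not in the other window of that gene, and in Slc38a7 and Slc38a10. The NF-kB letters, in 1.63% of windows, and the antioxidant response letters, in 3.04%, matched none of the windows given for tested members. Other spellings of both elements were not searched, so this absence holds for the letters given alone. Only 9 of the 13 called members had a window. Slc7a2, Slc7a5, Slc6a6 and Slc6a8 had none and were not searched for any motif. A match is a description of the letters, and factor binding was not measured.

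Other genes of amino acid supply were described by lists. A gene on more than 1 list, such as Asns, was counted in each. With TGFß1, 6 of 18 genes of ATF4 and its targets were called higher (33.3%, beside 11.1% of all genes) and none lower, with a median log2 fold-change of 0.53. These included the hormone Fgf21 at 2.60 (SE 0.44), the mTORC1 inhibitor Ddit4 at 1.47 (SE 0.12), the translation repressor Eif4ebp1 at 0.76 and the stress protein Nupr1 at 0.73. Fgf21 had TGFß1 levels of -0.91, -0.92 and -0.87 and control levels of -3.76, -3.97 and -3.14, far apart. With TNFα 2 of 18 were called higher (11.1%, beside 6.26% of all genes), the secreted protein Stc2 at 2.34 (SE 0.49) and the factor Atf3 at 1.06 (SE 0.32), with a median of 0.34. The median over all genes was 0.06 with TGFß1 and 0.02 with TNFα. Atf4 itself was called with neither cytokine, and the lowest values of the list were -0.46 with TGFß1 and -0.77 with TNFα.

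Of 13 tested genes of serine, folate, asparagine and proline synthesis, 6 were called higher with TGFß1 (46.2%, beside 11.1% of all genes) and 4 with TNFα (30.8%, beside 6.26%), none lower, with medians of 0.57 and 0.47. The proline-forming reductase Pycrl rose by 1.00 with TGFß1 and 0.92 with TNFα, and the folate enzyme Mthfd2 by 0.87 with TGFß1. The proline-degrading Prodh rose by 1.24 with TNFα, so that enzymes of opposite direction stand in this list. Of 18 tested genes of glutamine, arginine, branched-chain and glutathione metabolism, 6 were called higher with TGFß1 (33.3%), 3 with TNFα (16.7%) and 1 with IL-1β (5.56%, beside 0.481% of all genes), none lower, with medians of 0.31, 0.22 and -0.01.

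Ass1, which makes the precursor from which arginine is rebuilt, was called with all 3. Its levels were 5.70, 5.12 and 5.84 in controls, 7.13, 7.13 and 7.47 with TNFα, 6.48, 6.90 and 6.64 with TGFß1 and 6.51, 6.30 and 6.29 with IL-1β. Each treated group lay above the controls, with log2 fold-changes of 1.80 (SE 0.12), 1.22 (SE 0.12) and 0.81 (SE 0.12). The branched-chain aminotransferase Bcat1 rose by 1.55 with TGFß1 (SE 0.30), and glutamine synthetase Glul by 1.23 with TNFα and 0.71 with TGFß1.

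All 20 aminoacyl-tRNA synthetases were tested. With TGFß1 3 were called higher (Iars at 0.66, Tars at 0.63, Rars at 0.61) and with TNFα 1 (Rars at 0.63), shares of 15% and 5% that lay near the 11.1% and 6.26% of all genes, with medians of 0.44 and 0.30 and lowest values of 0.04 and 0.05. Of 20 tested genes that report amino acids to mTORC1, none was called higher, and 2 were called lower with TNFα (10%, beside 8.09% of all genes) and 1 with TGFß1 (5%, beside 12.0%). The leucine sensor relatives Sesn3, at -0.94, and Sesn1, at -0.63, fell with TNFα, and Sesn1 at -0.61 with TGFß1. Of 12 tested carriers of amino acids and peptides from other families, TNFα had 2 higher and 2 lower (16.7% each way) and TGFß1 1 of each (8.33%). Over all genes 6.26% were called higher and 8.09% lower with TNFα, and 11.1% and 12.0% with TGFß1. The aromatic amino acid carrier Slc16a10 rose with TNFα at 0.93 and TGFß1 at 1.02, and the lysosomal cystine exporter Ctns fell at -0.66 and -0.61. Slc25a29, a mitochondrial carrier of basic amino acids, fell with TNFα by 1.19 (SE 0.29), from levels of -2.09, -2.02 and -2.04 in controls to -3.51, -3.37 and -2.98.

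Slc15a3, a lysosomal peptide and histidine carrier, was well above background on the 3 TNFα arrays alone. Its levels were -3.34, -2.34 and -2.90 with TNFα and -7.42, -6.73 and -6.36 in controls, at least 3.88-fold higher. It is 1 of the 2 carriers counted as higher with TNFα, and it entered the test only through that group. No list had a gene called with IL-6, and IL-1β had only Ass1. The 6 lists had medians between -0.03 and 0.08 with IL-1β and between -0.03 and 0.12 with IL-6.

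**Figure D4:**
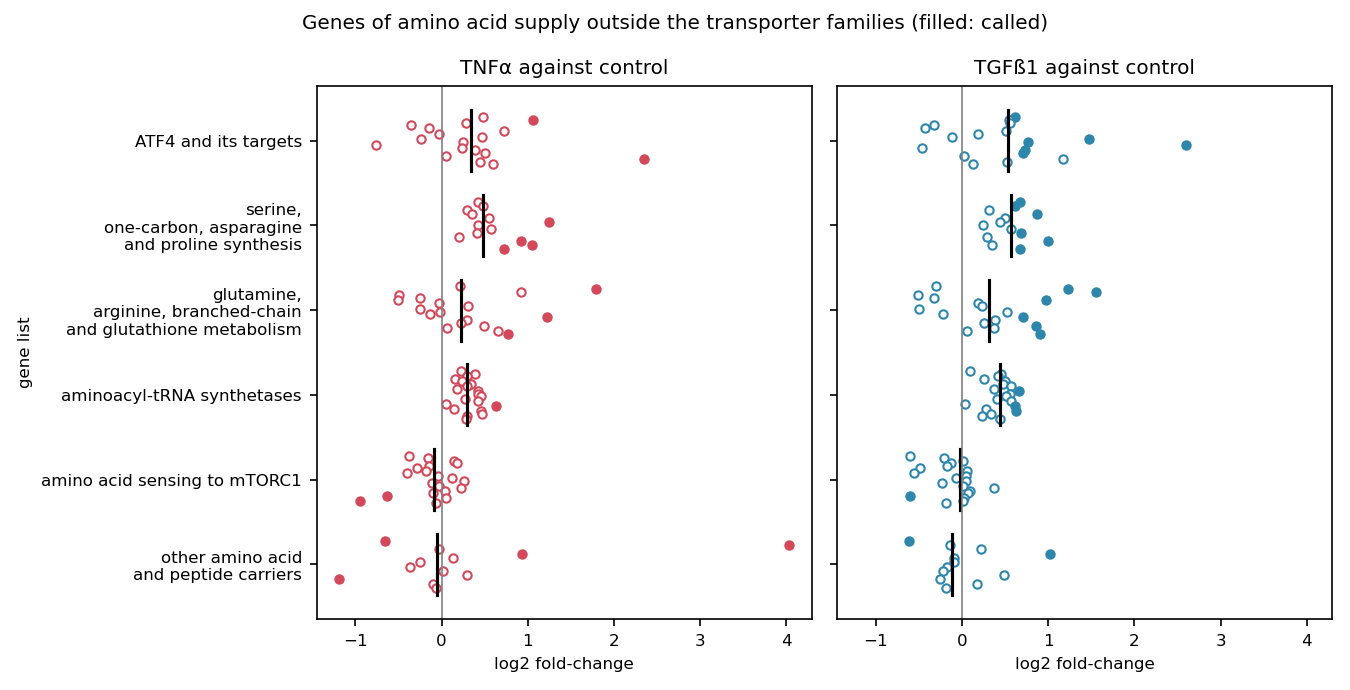
Log2 fold-change of the tested genes of 6 lists of amino acid supply with TNFα (left) and TGFß1 (right) against control, on a shared axis; points are genes, filled where called, and black bars are list medians. The medians of the first 4 lists lie to the right of 0 in both panels, and those of the mTORC1 list and of the other carriers lie left of 0.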

How the data were processed

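RNA of 15 cultures was labelled with Cy3 and hybridised to 60-mer one-color arrays. The authors scanned them and extracted spots with Agilent Feature Extraction 10.7.3.1, and the deposited scanner files hold spot intensity (processed signal) with detection marks and no normalization between arrays. Arrays were grouped by their labels. A figure legend of the study speaks of 3 independent experiments for the control, TNFα and TGFß1 arrays, but the labels do not tie arrays to them, so p-values measure the spread between these arrays. Arrays of 1 run of label numbers (1 to 5, 6 to 10, 11 to 15) were checked for shared deviations. After group and slide were taken out, the 30 pairs of arrays of 1 run from different groups correlated at 0.11 to 0.67 over the tested probes, and all 15 arrays correlated best with an array of their own run, whereas without taking out the slide only 12 of the 30 pairs were above 0.1. The run was therefore used as a block beside the fit with the slide.

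Spots marked non-uniform or outlier were left out, spots of a probe were averaged, and log2 intensity was centred on the 75th percentile of each array. Probes were named through their RefSeq accession. limma 3.58.1 in R 4.3.3 fitted group and slide over all 15 arrays, with 2-sided tests. limma, the q threshold and the fold-change of 1.5 follow the study's methods, which give no formula. The script was tested on simulated data.

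Named members were those called against control, up to 5 in each direction in direct comparisons, and a set of 14 named whether called or not. List genes named were up to 4 called with the largest change; Ass1 is followed through every group it was called in, and Rars, Sesn1 and Ctns were named after their values were seen where a list had few calls. Members and lists were chosen with earlier results of these data known. Bounds ("at least") set the mean of the bright group against the dimmest signal well above background, on the processed signal. Alternatives covered slide, runs of label numbers, scaling, background, filters, thresholds, probes and left-out arrays. The planned normexp correction on mean signal used the median signal, as the scanner files used here hold no mean signal; this was chosen after seeing the data. Of the list genes, P5cr and Samtor matched no probe. Precision is limited by the number of arrays.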

Additional observations from a re-analysis of the deposited data

Results flagged for a closer look

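The effects of 10 comparisons of a member differed between cytokines in a direct test of the difference by limma over all probes, each with 3 arrays a group. Between TNFα and TGFß1 the log2 difference (TNFα minus TGFß1) was 3.91 for Slc7a2, 3.27 for Slc43a2, 1.02 for Slc38a4, 0.92 for Slc7a7 and -1.01 for Slc6a8. Between IL-1β and TNFα (IL-1β minus TNFα) it was -0.61 for Slc7a1, -1.09 for Slc7a11, -1.41 for Slc43a2, -1.42 for Slc7a5 and -2.59 for Slc7a2. In each of these 10 the arrays of the groups compared did not overlap. The 10 were picked by their calls on the same arrays, so this separation is no further support. For Slc7a2 the values given here are fitted near background, and it entered the test only through its TNFα arrays. The bound given with the direct comparison holds for the processed signal only, as the lowest fitted difference from TGFß1 among the alternatives was 1.33.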

How the results depend on the processing

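None of the 24 calls changed direction, while 14 of 44 uncalled values of named members, the largest of them at -0.24, fell on both sides of 0. With single slides (fewer arrays, lone arrays assumed to vary like the others) slide 1 gave 0 calls for TNFα, 1 for TGFß1, 0 for IL-1β, 1 for TNFα against TGFß1 and 0 for IL-1β against TNFα, and slide 2 gave 3 for TNFα, 0 for IL-1β and 1 for IL-1β against TNFα. Q alone gave 10 calls with TNFα, 12 with TGFß1, 10 for TNFα against TGFß1 and 9 for IL-1β against TNFα. Of all 13523 genes, 3178, 5719, 3748 and 1664 passed it in these comparisons. Normexp gave 4 with TGFß1 and 3 for TNFα against TGFß1, and a fold-change of at least 2 left 2 with TGFß1. The IL-1β call became 0 without the slide, with no filter on dim probes, with the arrays of the 2 groups alone and with the mean over probes, and 2 with runs of label numbers as a block. IL-1β against TNFα fell to 1 with no filter and 0 with the arrays of the 2 groups. Leaving out 1 array gave 4 to 8 calls with TNFα (4 without control 6 or TNFα 4), 4 to 8 with TGFß1 (4 without control 6 or TGFß1 2), 0 with IL-1β, 0 with IL-6, 4 to 7 for TNFα against TGFß1 and 0 to 4 for IL-1β against TNFα (0 without TNFα 14, 1 without IL-1β 15, 2 without IL-1β 10, 3 without TNFα 4 or TNFα 9). The cause was not tested. Runs as a block gave 7 calls with TNFα, 9 with TGFß1 and 6 for TNFα against TGFß1, kept all 24 calls and added Slc7a7 with TNFα, Slc7a3 and Slc7a5 with TGFß1, and Slc7a11 with IL-1β and for TNFα against TGFß1. Centring on the median moved the median of all probes to 0.13 with TGFß1 and to -0.14 for TNFα against TGFß1. IL-6 gave 0 calls under every alternative.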

Other observations

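Slc6a4, the serotonin transporter, was not tested, as no group had all 3 arrays well above background. It is named here after its values were seen. Its TGFß1 levels were -3.31, -2.94 and -6.05 with 2 arrays well above background, its TNFα levels -4.83, -4.04 and -5.41 with 1, and its control levels -7.19, -7.04 and -6.33 with none. With no filter on dim probes the log2 fold-change with TGFß1 was 2.83 (SE 0.67, q = 0.0188 by limma), a fitted value near background, with TGFß1 12 close to the controls. In the other 2 groups no array was well above background.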
